A study of Mus musculus with 4 samples.

Results

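F-box protein genes were examined in LSK cells, the lineage-negative Sca1+ c-Kit+ fraction of fetal liver that holds hematopoietic stem cells and early progenitors. The family was taken as every gene whose symbol on the array reads Fbxl, Fbxo or Fbxw followed by a number, apart from Fbxw7, which is given with the partner genes. Where a gene had several probe sets, the brightest by mean log2 level was taken. This gave 61 genes with 107 probe sets, out of 20667 genes and 45037 probe sets in all. A probe set is a group of short oligonucleotides that reads 1 stretch of a transcript.

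The 2 Ddb1-deficient samples came from embryos of genotype DDB1 flox/flox, VavCre+, in which the Vav1 promoter drives Cre in the hematopoietic compartment. The 2 control samples were DDB1 flox/flox, VavCre-, so both groups carried the floxed alleles and only the first carried Cre. All 4 samples were of the C57BL/6x129 strain at E16.5, a late stage of fetal liver hematopoiesis, and 20 ng of RNA from each was amplified in 2 cycles and put on an Affymetrix Mouse430_2 array. The sources do not say whether a sample was 1 embryo or a pool, so the spread between samples of a group may be partly technical and the p-values measure that spread alone.

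F-box proteins are the substrate receptors of the SCF ubiquitin ligases. The F-box binds the adaptor SKP1, which sits on the scaffold CUL1 with the RING protein RBX1, and the rest of the protein picks the target to be ubiquitinated. The role is the counterpart of that of the DCAF proteins, which bind DDB1 on CUL4. The family is split by the substrate-binding domain: Fbxl proteins have leucine-rich repeats, Fbxw proteins have WD40 repeats and Fbxo proteins have other domains.

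Promoters of 4 members are shown because these genes had the largest log2 differences in either direction among members with separate arrays (both Ddb1-deficient arrays on the same side of both control arrays), an unadjusted limma p under 0.05 and a promoter on record. Each runs 5′ to 3′ on the gene's strand, 250 bases before and 50 after the start of transcription, from RefSeq on GRCm38.p6. Capitals mark the letters CCAAT or the reverse complement ATTGG, and CCGGAAG, the core of an ETS factor motif. On the probe sets used, Fbxo28 and Fbxl17 read lower on both Ddb1-deficient arrays and Fbxw11 and Fbxw17 read higher. None of the 4 had an adjusted p under 0.05 in limma. As means over all probe sets, the differences of Fbxo28 and Fbxw11 shrank to -0.59 and 0.17. The windows of Fbxo28, Fbxl17, Fbxw11 and Fbxw17 lie, in this order, at chr1:182341557-182341856 (minus strand), chr17:63500531-63500830 (minus strand), chr11:32642305-32642604 (plus strand) and chr13:50417614-50417913 (plus strand).
Fbxo28: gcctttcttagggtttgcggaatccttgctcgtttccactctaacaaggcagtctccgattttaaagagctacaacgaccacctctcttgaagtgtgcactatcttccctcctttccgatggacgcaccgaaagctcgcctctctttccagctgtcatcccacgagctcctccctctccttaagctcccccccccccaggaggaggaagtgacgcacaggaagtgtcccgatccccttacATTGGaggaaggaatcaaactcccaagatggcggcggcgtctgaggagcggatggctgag
Fbxl17: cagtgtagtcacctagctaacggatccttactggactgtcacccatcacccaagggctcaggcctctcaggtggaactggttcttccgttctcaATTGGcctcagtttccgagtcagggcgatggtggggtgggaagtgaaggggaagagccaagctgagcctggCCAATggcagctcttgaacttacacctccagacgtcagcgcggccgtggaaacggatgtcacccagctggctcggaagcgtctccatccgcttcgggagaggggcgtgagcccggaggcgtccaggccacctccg
Fbxw11: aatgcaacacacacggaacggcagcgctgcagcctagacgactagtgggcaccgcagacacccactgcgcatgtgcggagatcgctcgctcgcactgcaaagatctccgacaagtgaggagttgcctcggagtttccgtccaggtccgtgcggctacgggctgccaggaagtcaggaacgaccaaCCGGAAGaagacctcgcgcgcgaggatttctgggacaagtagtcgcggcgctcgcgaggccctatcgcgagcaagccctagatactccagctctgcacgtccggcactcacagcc
Fbxw17: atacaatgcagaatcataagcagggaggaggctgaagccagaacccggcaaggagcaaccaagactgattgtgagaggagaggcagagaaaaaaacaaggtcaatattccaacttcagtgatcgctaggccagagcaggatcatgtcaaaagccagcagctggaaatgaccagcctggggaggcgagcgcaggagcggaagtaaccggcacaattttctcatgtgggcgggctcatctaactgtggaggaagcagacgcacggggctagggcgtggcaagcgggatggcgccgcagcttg
The Fbxl17 window held CCAAT at 95 and 166 bases from its 5′ end and the Fbxo28 window at 241, while Fbxw11 had CCGGAAG at 186 and Fbxw17 had none of the motifs searched. RefSeq promoters were matched for 45 of the 61 members, with 61 start sites among them. Both strands were searched for each motif and motifs were counted once per promoter. CCGGAAG was in 24.6% of the member promoters, against 8.86% of all 32851 promoters in the table. CCAAT was in 31.1% of member promoters against 37.4% of all, and the E-box CACGTG in 6.56% against 7.15%. The E2F motifs TTTCCCGC and TTTGGCGC and the TATA box TATAAA were in 0 of 61 member promoters, against 1.56% and 13.6% of all promoters. An observed over expected CpG ratio above 0.6 was found in 67.2% of member promoters and in 35.8% of all, and the motif shares were not adjusted for base composition. A match is a description of these letters only.

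Before the members, the checks of the samples are given. Ddb1, the targeted gene, read log2 4.58 and 4.33 in Ddb1-deficient samples against 6.06 and 6.26 in control samples. Of 11 LSK markers, 2 were higher and 3 lower with separate arrays, beside 22.5% and 18.5% of all genes. Kit and Ly6a, which define the sort, overlapped. Hlf and Gata2 were higher by 1.46 and 0.51, and Flt3, Cd48 and Spn had differences of -4.19, -0.87 and -0.76. Of markers of other cells, 16 of 17 macrophage markers, 14 of 20 erythroid markers and 11 of 20 endothelial markers were higher on both Ddb1-deficient arrays. Summed macrophage marker intensity was 20703 and 25198 in Ddb1-deficient samples and 4024 and 6396 in control samples, and summed erythroid marker intensity was 5291 and 6198 against 1220 and 2934. Of the hepatoblast markers 9 of 21 were higher and 2 lower. Lower on both Ddb1-deficient arrays were 12 of 14 myeloid markers, 7 of 13 B lineage markers and 17 of 25 genes of S phase and G2/M, and 0 of these 25 were higher. The Ddb1-deficient samples stood far apart in B lineage markers, with a summed intensity of 5051 in sample 1 and 334 in sample 2, against 6888 and 9908 in control samples. The part that these shifts play in any result below was not tested. In bulk RNA, fewer cells of a type and less RNA per cell cannot be told apart.

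Overlap between the groups was about as common in the family as over all genes. Of the 61 genes, 36 had overlapping arrays between the groups, beside 12196 of all 20667 genes. Of the members, 10 (16.4%) were higher on both Ddb1-deficient arrays and 15 (24.6%) were lower on both. Over all genes the shares were 22.5% higher and 18.5% lower. No member passed the test, which called a gene at an adjusted p under 0.05 in limma, nor did any of the 20667 genes, and the smallest adjusted p was 0.197 among members and 0.133 among all genes. At an unadjusted limma p under 0.05 there were 4 members higher (6.56%) and 7 lower (11.5%), beside 4.9% and 6.03% of all genes. A log2 difference above 1 was seen in 2 members and one below -1 in 5, beside 4.83% and 5.73% of all genes. With 2 samples a group an exact two-sided permutation test of a single gene cannot go below 0.333, and the number of arrays limits the precision of every value here.

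The median log2 difference of the family, Ddb1-deficient minus control, was -0.06 with quartiles at -0.42 and 0.13, and that of all genes was 0.03 with quartiles at -0.24 and 0.26. The median F-box level was log2 3.04 and 3.08 on the Ddb1-deficient arrays and 2.97 and 3.26 on the control arrays, so that the family as a whole sat between the control arrays in Ddb1-deficient cells. The median of all probe sets and arrays was log2 2.057, and a gene at or below it is called dim here, since little signal stands above background there. Of the members, 14 were dim on all 4 arrays, and 41 had a mean over the 4 arrays above this level. Among those 41, 6 were higher and 14 lower with separate arrays and the median difference was -0.25, while of the 11901 genes above the same level 19.9% were higher and 25.4% lower with a median of -0.05. Of the 20 dim members 4 were higher and 1 lower, beside 26.1% and 9.05% of the 8766 dim genes.

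The classes were counted separately, and over all genes 22.5% were higher and 18.5% lower with separate arrays. Of 16 Fbxl genes 2 were higher and 6 lower with separate arrays, with a median log2 difference of -0.18. Of 33 Fbxo genes 4 were higher and 9 lower, with a median of -0.04. Of 12 Fbxw genes 4 were higher and 0 lower, with a median of 0.09. No difference between the classes was tested, and 6 of the 12 Fbxw genes were dim in both groups.

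**Figure D1:**
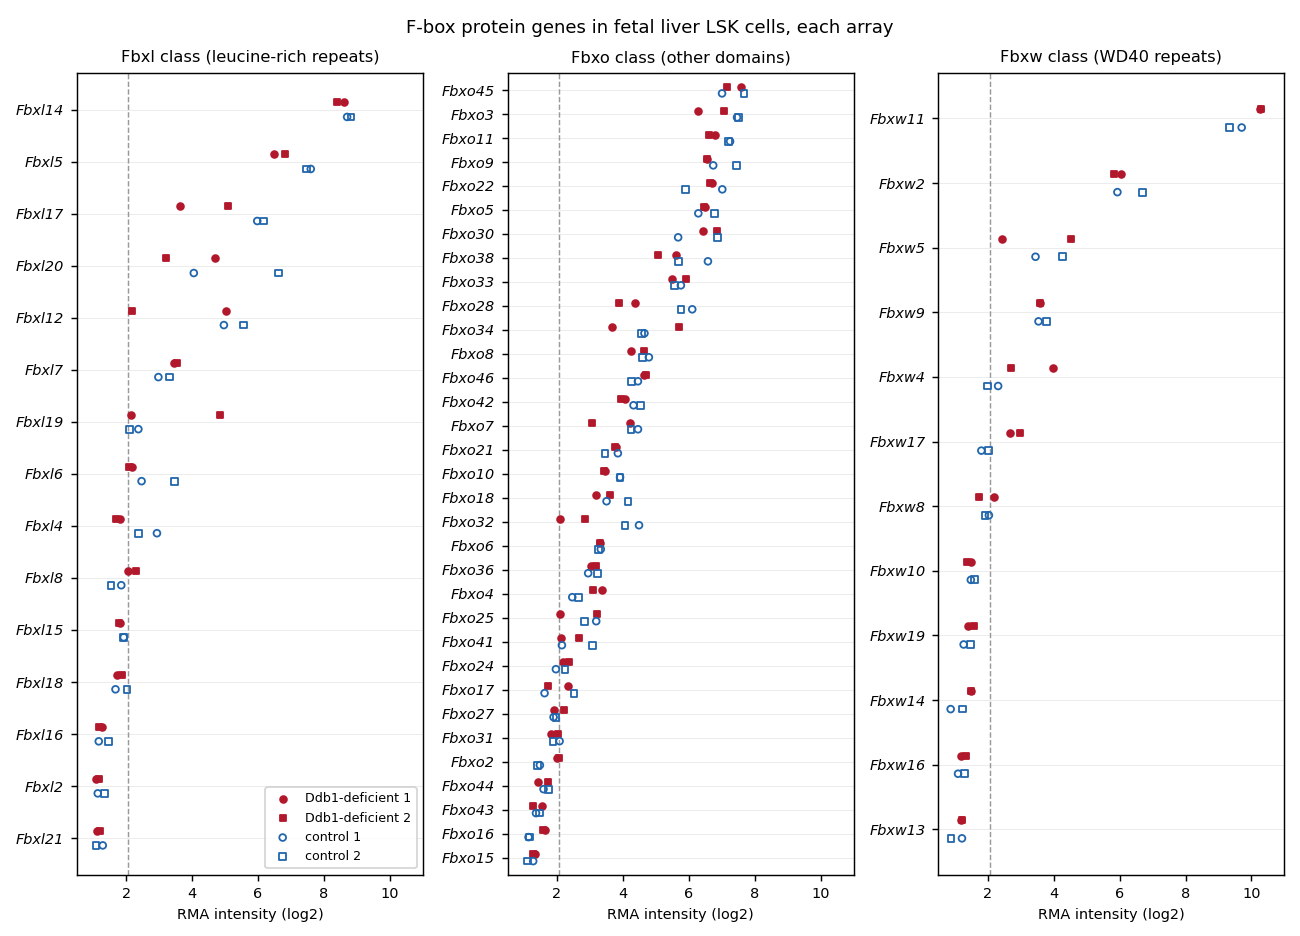
RMA intensity (log2) of 60 F-box genes on each array, by class, with Ddb1-deficient samples as filled red symbols and control samples as open blue symbols. The dashed line marks the median of all probe sets, log2 2.057, and Fbxw11 is the brightest gene on all 4 arrays.

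The brightest members were Fbxw11, Fbxl14, Fbxo45, Fbxl5 and Fbxo3, in the order of their means, and 4 of the members lay above the 90th percentile of all genes. These are levels of probe sets on the log2 scale, and probe sets differ in how strongly they bind, so the order does not rank transcripts. Fbxw11 encodes beta-TrCP2, the receptor that takes phosphorylated beta-catenin and the NF-kappaB inhibitor. It read 10.26 and 10.28 in Ddb1-deficient cells and 9.70 and 9.33 in control cells. Both Ddb1-deficient arrays were above both control arrays, by 0.75 on the log2 scale (SE 0.22, 1.69-fold, adjusted p = 0.373 in limma). It was 0.13 on the brightest probe set not marked as possibly shared and 0.17 as the mean over its probe sets. Fbxl14, which targets the transcription factor SNAI1, stood at 8.62 and 8.40 in Ddb1-deficient cells and at 8.70 and 8.81 in control cells. The groups of Fbxl14 did not overlap, but the difference was small (log2 -0.25, SE 0.19, adjusted p = 0.73), and it was -0.14 without Ddb1-deficient sample 2 or after a further quantile normalization. Fbxo45 works with the large ligase MYCBP2 in place of CUL1 and had 7.57 and 7.16 in Ddb1-deficient cells against 7.01 and 7.67 in control cells, which overlap.

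The most negative differences were those of Fbxo28, Fbxo32 and Fbxl17, all with separate arrays. Fbxo28, a receptor known to act on MYC, had log2 values of 4.37 and 3.89 in Ddb1-deficient cells and 6.10 and 5.76 in control cells. The means were 4.13 ± 0.34 and 5.93 ± 0.24 (SD, n = 2 each), a difference of -1.80 (SE 0.27, 3.49-fold) with an adjusted p of 0.197, the lowest of the family. The gene has 2 dimmer probe sets whose arrays overlap between groups, with differences of 0.38 and -0.36, so the difference rests on 1 of 3 probe sets and was -0.59 as the mean over them.

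Fbxo32 encodes atrogin-1, known for protein loss in wasting muscle. It stood at 2.11 and 2.85 in Ddb1-deficient cells and at 4.49 and 4.06 in control cells, with means of 2.48 ± 0.52 and 4.28 ± 0.30 (SD, n = 2 each). The difference was -1.80 (SE 0.35, adjusted p = 0.246), and Ddb1-deficient sample 1 was close to the median of all probe sets. A second, dimmer probe set overlapped between the groups at -0.48, and the mean over both gave -1.14.

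Fbxl17, which acts in quality control of BTB domain proteins, had 3.64 and 5.09 in Ddb1-deficient cells against 5.97 and 6.16 in control cells. The Ddb1-deficient arrays lay far apart but both below the controls. The difference was -1.70 (SE 0.55, adjusted p = 0.423), and it was -0.98 without Ddb1-deficient sample 1 and -2.43 without Ddb1-deficient sample 2. The other Fbxl17 probe set was lower as well, at 1.78 and 2.09 in Ddb1-deficient cells and 2.53 and 2.89 in control cells.

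Fbxl5 is the iron sensor of the family, a receptor with a hemerythrin domain that is stable when iron is plentiful and then degrades the iron regulatory protein IRP2. It had 6.48 and 6.82 in Ddb1-deficient cells and 7.60 and 7.48 in control cells, means of 6.65 ± 0.24 and 7.54 ± 0.08 (SD, n = 2 each). Both groups were tight relative to the gap of -0.89 (SE 0.21, 1.85-fold, adjusted p = 0.303), and the difference ranged between -1.06 and -0.72 with any 1 array left out. Ireb2, which encodes IRP2, was also lower on both arrays, at 6.16 and 6.38 in Ddb1-deficient cells and 6.45 and 6.49 in control cells, a difference of only -0.20.

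The 2 receptors listed for lymphoid and survival targets had separate arrays, below control. So did 18.5% of all genes and 25.4% of genes above the median probe set, and a list of 2 is too short to compare. Neither receptor passed the test. Fbxo11, the receptor of the germinal center repressor BCL6, had 6.80 and 6.60 in Ddb1-deficient cells against 7.25 and 7.19 in control cells (log2 -0.52, SE 0.18, adjusted p = 0.454). Fbxo10, which degrades the survival protein BCL2, had 3.45 and 3.41 against 3.91 in both control samples (log2 -0.48, adjusted p = 0.451). Bcl6 itself was far lower on both Ddb1-deficient arrays, at 2.39 and 1.69 against 6.47 and 6.33 in control cells (log2 -4.36, adjusted p = 0.133).

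The 2 members tied to mitochondria and the proteasome had separate arrays as well, below control, beside 18.5% of all genes. This list of 2 is also too short to compare, and neither member passed the test. Fbxl4, a mitochondrial protein that restrains mitophagy, had 1.82 and 1.68 in Ddb1-deficient cells, which is dim, and 2.93 and 2.36 in control cells (log2 -0.90, SE 0.27, adjusted p = 0.391). Fbxo7, which binds the proteasome regulator PI31 and Parkin, had log2 values of 4.2 and 3.05 in Ddb1-deficient cells against 4.46 and 4.25 in control cells. The Fbxo7 difference of -0.73 came mostly from Ddb1-deficient sample 2 and was -0.15 without it and -1.30 without sample 1.

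Fbxo3, Fbxo38 and Fbxl6 complete the named genes with lower values. Fbxo3, which targets the receptor FBXL2, had 6.28 and 7.07 in Ddb1-deficient cells and 7.46 and 7.50 in control cells (log2 -0.81, SE 0.33), which was -0.41 without Ddb1-deficient sample 1 and -0.45 as the mean over its probe sets. Of its 5 probe sets 4 had a negative difference, and 3 of them had separate arrays. Fbxo38, known to target the receptor PD-1 in T cells, had 5.61 and 5.08 against 6.58 and 5.68 in control cells (log2 -0.79), a difference that was -0.34 without control sample 1, -1.24 without control sample 2 and -0.52 without Ddb1-deficient sample 2. Fbxl6 had 2.18 and 2.09 in Ddb1-deficient cells, near the dim level, and 2.46 and 3.47 in control cells (log2 -0.83), and the difference was -1.33 without control sample 1 and -0.33 without control sample 2. Fbxo9, Fbxo42 and Fbxl15 also lay lower on both Ddb1-deficient arrays, at log2 -0.54, -0.42 and -0.13.

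**Figure D2:**
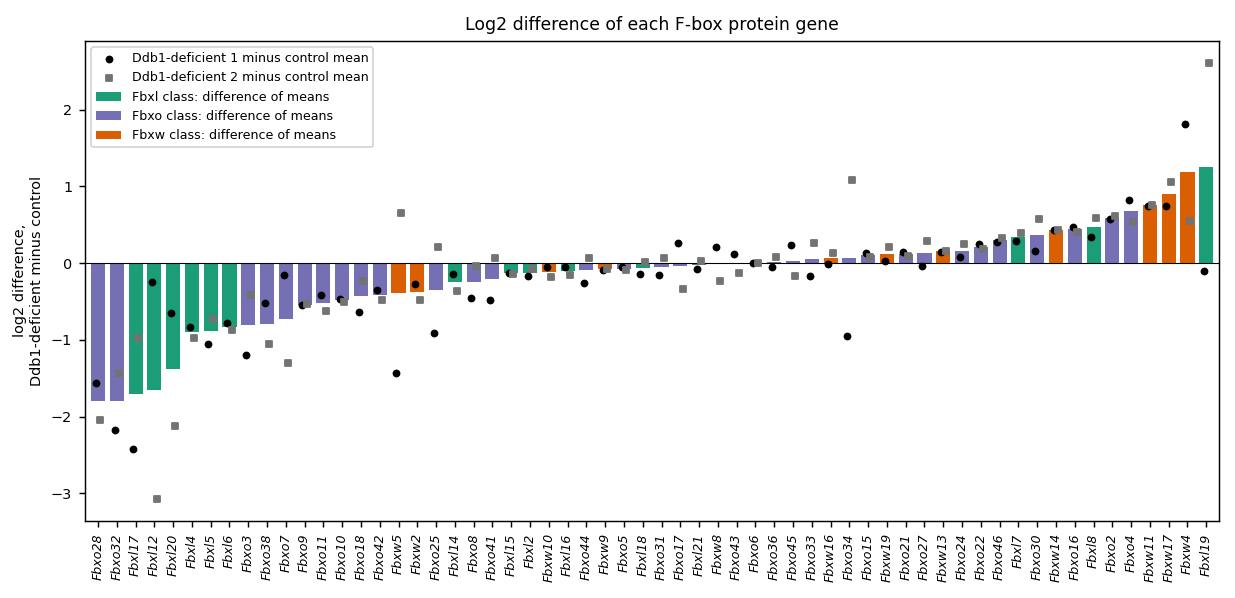
Difference of log2 means (bars, coloured by class) of 60 F-box genes, Ddb1-deficient minus control, in order of size, with each Ddb1-deficient array minus the control mean as a point. The bars run from -1.80 for Fbxo28 to 1.25 for Fbxl19, and points on opposite sides of 0 mark genes whose Ddb1-deficient arrays lie on either side of the control mean.

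Higher members were mostly of low level. Fbxw4, the gene disrupted in the dactylaplasia limb mutant, had 3.97 and 2.69 in Ddb1-deficient cells and 2.32 and 1.98 in control cells. The Ddb1-deficient arrays were 1.18 higher on the log2 scale (SE 0.50, adjusted p = 0.525), 0.54 higher without Ddb1-deficient sample 1 and 1.82 higher without sample 2. Fbxw17 had 2.66 and 2.97 in Ddb1-deficient cells against 1.81 and 2.03 in control cells. Here the control arrays were dim and the groups were clear of each other (log2 0.90, SE 0.22, adjusted p = 0.31). Fbxw13, Fbxw14, Fbxw16 and Fbxw19, relatives that RefSeq places on chromosome 9, were dim on all arrays. Their differences were positive, but only that of Fbxw14 came with separate arrays, and Fbxw13 and Fbxw16 turned sign when 1 array was left out.

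Members with cyclins and cell cycle regulators as targets went different ways. Fbxo4, which binds cyclin D1, had 3.38 and 3.08 in Ddb1-deficient cells and 2.46 and 2.64 in control cells (log2 0.68, SE 0.21, adjusted p = 0.405). A second, dim probe set of Fbxo4 showed 0.01, and the mean of both was 0.35. Fbxl8, known for cyclin D3, had 2.04 and 2.28 against 1.85 and 1.54. Fbxo31 and Fbxl2, both with D cyclins as known targets, lay near or below the dim level with overlapping arrays. Fbxl12, which takes CDK inhibitors, had 5.01 and 2.18 in Ddb1-deficient cells and 4.96 and 5.55 in control cells: sample 1 lay among the controls and sample 2 far below, so the mean difference of -1.66 rests on 1 array. Fbxo5, or EMI1, the inhibitor of the anaphase-promoting complex that is expressed in cycling cells, had 6.49 and 6.44 against 6.29 and 6.79 in control cells. The Ddb1-deficient values lay within the control range (log2 -0.07, SE 0.25), on arrays where 17 of 25 genes of S phase and G2/M were lower. Its oocyte relative Fbxo43 was dim.

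Of the 5 members listed as sugar-binding, 1 was higher and 0 lower with separate arrays, beside 22.5% and 18.5% of all genes. The list is named for receptors such as that of Fbxo2, which recognizes N-glycans on misfolded glycoproteins. Sugar binding by each member was not tested. Fbxo2 had 2.01 and 2.06 in Ddb1-deficient cells and 1.48 and 1.40 in control cells (log2 0.59, adjusted p = 0.38), all at or about the dim level. Fbxo6 read 3.30 on both Ddb1-deficient arrays against 3.33 and 3.26 in control cells, and Fbxo17, Fbxo27 and Fbxo44 overlapped. Another Fbxo6 probe set, near the dim level, was lower with separate arrays (log2 -0.30). Fbxl7, a receptor for Aurora A kinase, had 3.44 and 3.54 against 2.97 and 3.31 (log2 0.35), with 0.09 as the mean over its probe sets and 0.18 without control sample 1. Fbxo46 had 4.64 and 4.69 against 4.46 and 4.27 (log2 0.30). Fbxo16 was dim in both groups and higher on both Ddb1-deficient arrays by 0.44.

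The receptors that work with a scaffold other than CUL1 had overlapping arrays. Fbxw5, a WD40 protein that also binds DDB1 on CUL4, had 2.42 and 4.51 in Ddb1-deficient cells and 3.45 and 4.26 in control cells. The Ddb1-deficient samples lay on either side of both controls (log2 -0.39, SE 0.81). Fbxw8, the partner of CUL7, lay close to the dim level with a difference of -0.01. Fbxl21, which acts on cryptochromes in the circadian clock, was dim.

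Some members were uneven within a group. Fbxl19, which binds CpG islands, had 2.13 and 4.85 in Ddb1-deficient cells and 2.37 and 2.10 in control cells, so its mean difference of 1.25, the highest of the family, came from sample 2 alone. Fbxl20, known at neuronal synapses, had 4.68 and 3.21 against 4.05 and 6.61. Across the family, the median absolute difference was 0.22 between the Ddb1-deficient arrays, 0.25 between the control arrays and 0.30 between the group means, and over all genes it was 0.32, 0.24 and 0.25. The histone demethylase receptor Fbxo22, the muscle gene Fbxo30, the helicase Fbxo18 and the neuronal genes Fbxl16 and Fbxo41 had overlapping arrays. So did Fbxw2, Fbxw9, Fbxw10, Fbxl18, Fbxo8, Fbxo15, Fbxo21, Fbxo24, Fbxo25, Fbxo33, Fbxo34 and Fbxo36, with log2 differences between -0.37 and 0.16.

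Of the 24 members with more than 1 probe set, 5 had all probe sets on the same side of 0 and 19 did not. The share over all genes was not counted, and some of the 19 split on values near 0, such as Fbxo36 at 0.02 and -0.01. One of the 5 is Fbxo6, whose brightest probe set was in effect at 0. For Fbxo45 the brighter probe set differed by 0.03 with overlapping arrays. Its dimmer probe set had 4.19 and 3.86 in Ddb1-deficient cells against 5.11 and 5.12 in control cells (log2 -1.09, arrays separate). Fbxw2 had separate arrays in both directions, at -1.02 on 1 probe set and 0.74 on another. The 5 probe sets of Fbxw11 ran between -0.86 and 0.75, and the probe sets at both ends had separate arrays. The brightest one is of a type that the manufacturer marks as possibly shared with other transcripts. Which transcripts each probe set reads was not tested.

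**Figure D3:**
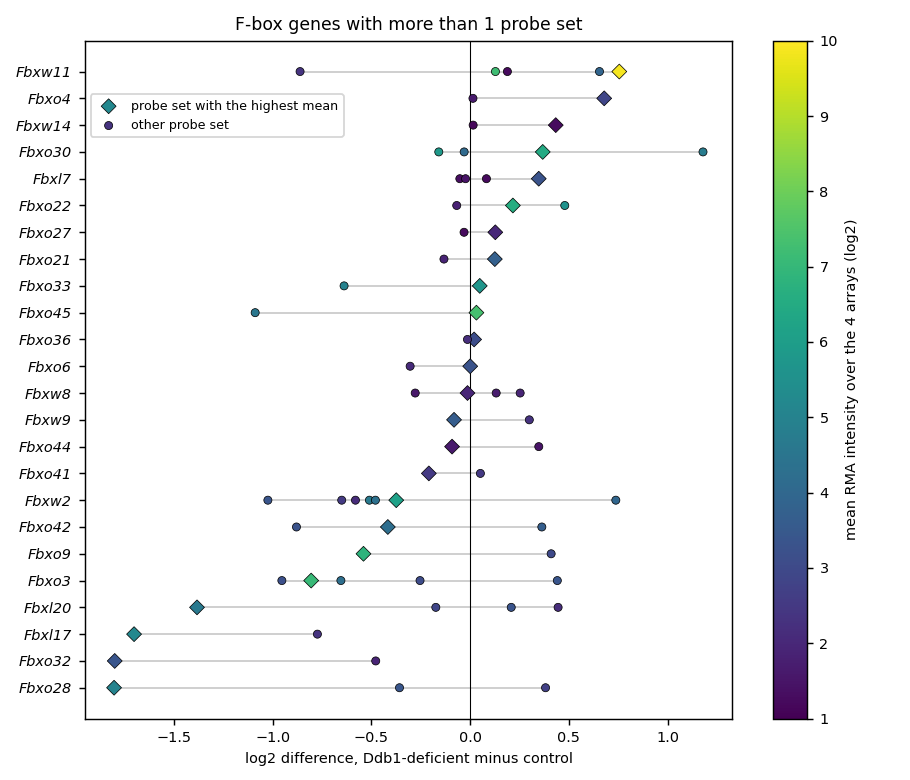
Log2 difference, Ddb1-deficient minus control, of every probe set of the 24 F-box genes with more than 1, with colour for mean log2 intensity. Diamonds are the probe sets used; 19 genes have probe sets on both sides of 0, and Fbxw11 spans -0.86 to 0.75.

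The rest of the SCF machinery had no common direction. Of 15 core subunits and regulators measured, 4 were higher and 3 lower with separate arrays, beside 22.5% and 18.5% of all genes. The median difference was -0.01. The adaptor Skp1a had 8.73 and 8.26 in Ddb1-deficient cells and 8.54 and 8.47 in control cells, and Rbx1 had 12.17 and 12.52 against 12.45 and 12.43. The scaffold Cul1 was separate but close, at 6.62 and 6.74 against 6.52 and 6.54. Cks2, of the small family that includes the cofactor of SKP2, had 7.89 and 8.16 in Ddb1-deficient cells against 9.37 and 9.26 in control cells (log2 -1.29, adjusted p = 0.199). Glmn, which masks RBX1 and keeps the E2 away, had 4.89 and 5.10 against 4.10 and 3.70 (log2 1.09, adjusted p = 0.28). Cand2, of the CAND exchange factors, was higher by 1.05.

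Measured were 8 F-box proteins with other names or left out of the family rule, and 1 of them, Fbxo18, is also a member above. With separate arrays 0 were higher and 3 lower, beside 22.5% and 18.5% of all genes. Fbxw7, the receptor for MYC, cyclin E and NOTCH1 that is known to keep adult stem cells quiescent, had 5.88 and 6.29 in Ddb1-deficient cells and 6.54 and 6.87 in control cells (log2 -0.62, SE 0.25, adjusted p = 0.507). Its other probe set had 5.95 and 5.26 in Ddb1-deficient cells against 6.94 and 6.87 in control cells (log2 -1.30, arrays separate). The histone demethylase Kdm2b had 6.66 and 6.15 against 7.29 and 6.83 (log2 -0.66), with an SD of 0.36 and 0.33 in the groups. Skp2, the receptor for the CDK inhibitor p27, had 7.07 and 6.90 against 7.25 and 7.39 (log2 -0.34). The 6 probe sets of Skp2 ran between -1.04 and 0.49. The brighter ones were all lower with separate arrays, at -0.34, -0.39, -1.04 and -0.41. The dimmest ones, at 0.36 and 0.49, had overlapping arrays.

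Of 23 measured targets and partners of F-box proteins, 4 were higher and 9 lower with separate arrays, beside 22.5% and 18.5% of all genes. The median difference was -0.20. Cry1, a repressor of the circadian clock, had 5.41 and 5.13 in Ddb1-deficient cells against 6.25 and 6.81 in control cells (log2 -1.26, adjusted p = 0.285). Cdc20, an activator of the anaphase-promoting complex, had 6.37 and 6.36 against 7.94 and 7.18 (log2 -1.19, adjusted p = 0.345). Ccnd1, or cyclin D1, was among the higher genes, at 7.51 and 7.78 against 7.04 and 6.71 (log2 0.77, adjusted p = 0.386). These are transcript levels, while the ligases act on the proteins, which were not measured.

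**Figure D4:**
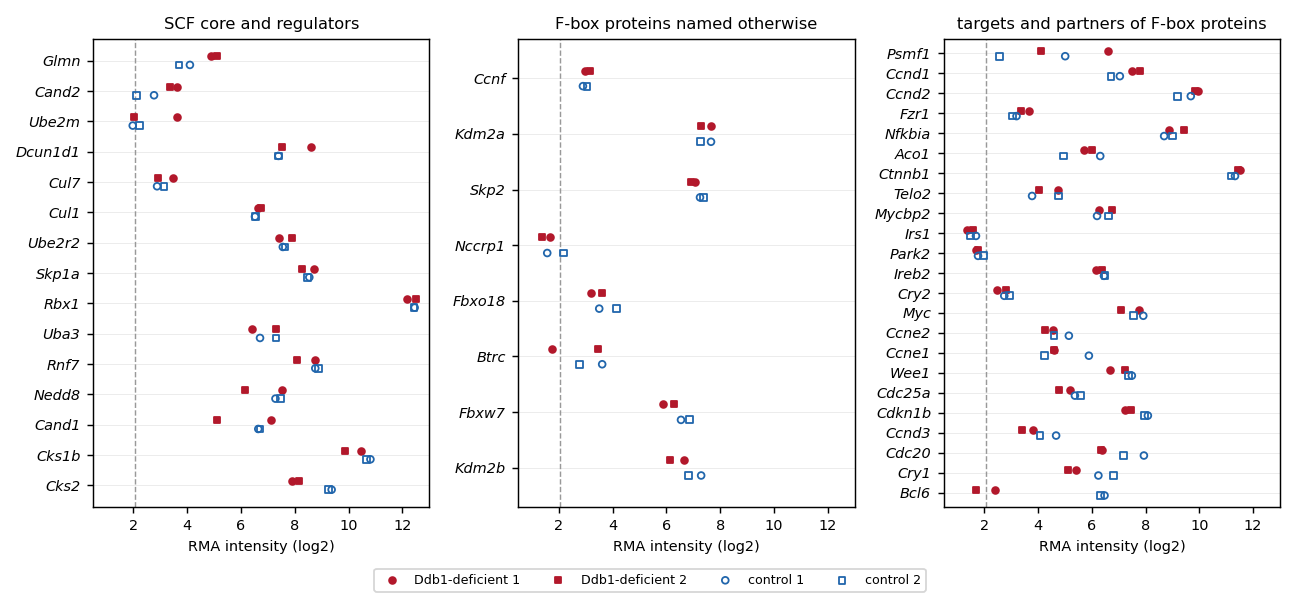
RMA intensity (log2) on each array of SCF core genes and regulators, F-box proteins outside the family rule, and targets and partners, with Ddb1-deficient samples filled and control samples open. Of the genes drawn, Bcl6 has the widest gap, with 2.39 and 1.69 in Ddb1-deficient cells against 6.47 and 6.33 in control cells, while Skp1a and Rbx1 overlap.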

How the data were processed

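LSK cells were sorted from fetal livers and RNA was amplified in 2 cycles. The authors normalized the arrays by RMA in GeneSpring (RMA version not given), which includes quantile normalization, and deposited a linear RMA intensity for each of 45101 probe sets. Beside it, the authors deposited log2 values from which the control mean had been subtracted. These equal the values of the deposited series matrix. Another deposited table, with the authors' t-test p-values and fold changes, was not used. How quantile normalization across all arrays acts on groups that differ in cell content was not tested.

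The log2 of the deposited intensity was used here. The 64 control probe sets were left out, and gene names were those of the file: 37463 probe sets carry 1 gene, 1460 several and 6114 none. A single probe set was kept per gene, that with the highest mean. The difference between groups was fitted per gene in limma 3.58.1 (lmFit, eBayes; R 4.3.3), unblocked, with Benjamini-Hochberg over 20667 genes and 2 residual degrees of freedom plus a prior of 1.96. The fit was tested on simulated data. Replicate 1 and replicate 2 of the groups share only a number (correlation of deviations -0.02). Alternatives were an unpaired t-test, a trended robust prior, the replicate number as a block, other scalings, other probe set choices, a filter on dim genes, the series matrix values and leaving out each array.

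Named genes are, in each direction, up to 8 members with the largest difference among those with separate arrays and a higher mean above the median probe set; the 5 brightest; members with a listed role; Fbxw7; and up to 4 genes from each partner list. Others were named after their values were seen. These are Fbxo9, Fbxo42, Fbxl15, Fbxo16 and the members with overlapping arrays and no listed role. The partner genes Skp1a, Rbx1, Cul1, Skp2, Ireb2, Ccnd1 and Ccnd2 were also named in this way. The members and lists were chosen with earlier results of these data known. Current RefSeq names matched all 61 members, of which 1 enters the counts but is not reported singly here. Probe set values correlated at r = 0.940 between Ddb1-deficient samples and r = 0.970 between control samples.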

Additional observations from a re-analysis of the deposited data

Results flagged for a closer look

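Probe sets that the comparisons did not use were higher on both Ddb1-deficient arrays for 4 members whose chosen probe set overlapped. Only higher probe sets above the dim level were looked for, so unused probe sets that were lower on both are not listed. The share over all unused probe sets was not counted. A second probe set of Fbxo30 had 5.45 and 5.20 in Ddb1-deficient cells and 4.04 and 4.25 in control cells, a log2 difference of 1.18. A further probe set of Fbxw2 had 4.46 and 4.12 against 3.63 and 3.48 in control cells, a difference of 0.74, while its brightest probe set differed by -0.37. Of the 7 Fbxw2 probe sets 6 had a negative difference, among them -1.02 and -0.65 with separate arrays. A probe set of Fbxw9 had 2.47 and 2.44 against 1.93 and 2.38, a difference of 0.30. A probe set of Fbxw8 had 2.03 and 2.10 against 1.68 and 1.94, a difference of 0.25 near the dim level.

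Of the probe sets for foreign transcripts added at hybridization, which carry no mouse RNA, 7 for bacterial Bio genes were higher on both Ddb1-deficient arrays, with log2 differences between 0.20 and 0.70 and a median of 0.58. The other 2, for phage Cre, overlapped between the groups, with differences of -0.0043 and -0.029.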

How the results depend on the processing

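No F-box gene passed an adjusted p under 0.05 in any alternative run. Over all genes the count was 0 in limma and 2 by the unpaired t-test, none of them an F-box gene. With the replicate number as a block the count stayed at 0, and at an unadjusted p under 0.05 the F-box genes were 3 higher and 6 lower, beside 4.29% and 5.38% of all genes. Without each array in turn the unadjusted count ran between 1 and 3 for higher members and between 3 and 8 for lower members. Each such run leaves an arm of 1 sample, which is assumed to vary like the other group. The count was 1 higher without control sample 1 or control sample 2, beside 2.68% and 2.81% of all genes, and 3 lower without either, beside 3.6% and 3.89%. Counts of separate arrays ran between 14 and 20 for higher and between 22 and 31 for lower members, since 3 arrays separate more easily; the higher count was 19 without Ddb1-deficient sample 1, 17 without control sample 1 and 20 without control sample 2, and the lower count 23 and 25 without Ddb1-deficient samples 1 and 2 and 31 without control sample 1. Over all genes the shares with separate arrays in these runs were between 35.9% and 41.3% higher and between 30.4% and 34.1% lower. Among genes above the median probe set only, 1 member was higher and 5 lower at an unadjusted limma p under 0.05, beside 5.87% and 7.41% of genes. With separate arrays 6 were higher and 14 lower, beside 19.9% and 25.4%, and the median difference was -0.25. Without each array in turn the family median lay between -0.17 and -9.54e-08, the last being in effect 0.

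Of 44 members followed singly, 17 changed sign in some setting, all of them with overlapping arrays. A gene with separate arrays cannot change sign when 1 array is left out, so this says nothing further about such genes. The share of all genes that change sign was not counted. This leaves out Fbxo6, whose difference was in effect 0 (-9.54e-08) and was given no sign, and which read 0.093 after a further quantile normalization, -0.304 without probe sets marked as possibly shared, and between -0.033 and 0.033 without 1 array. Fbxo45 turned to -0.012 with arrays centred on their median and -0.53 with the mean of its probe sets, which also turned Fbxo44 to 0.13 and Fbxw8 to 0.023, and Fbxo5 turned to 0.035 after a further quantile normalization. Leaving out 1 array moved the differences between these limits: Fbxl16 -0.25 and 0.044, Fbxl19 -0.10 and 2.61, Fbxl21 -0.13 and 0.076, Fbxo17 -0.48 and 0.41, Fbxo22 -0.35 and 0.78, Fbxo27 -0.038 and 0.29, Fbxo30 -0.23 and 0.97, Fbxo31 -0.16 and 0.064. For the others they were Fbxo41 -0.67 and 0.25, Fbxo43 -0.13 and 0.11, Fbxo44 -0.25 and 0.070, Fbxo45 -0.30 and 0.36, Fbxo5 -0.32 and 0.18, Fbxw13 -0.013 and 0.32, Fbxw16 -0.036 and 0.16, Fbxw5 -1.43 and 0.66, Fbxw8 -0.24 and 0.21. The cause was not tested. Dim members have signal close to background, which limits what their differences can show.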
